A study of Mus musculus with 6 samples.

Results

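The lymphocyte antigen 6 (Ly6) genes described here were *Ly6a*, *Ly6c1*, *Ly6c2*, *Ly6d*, *Ly6e* and *Ly6k*, chosen by symbol as 6 of the 31053 features of a mouse single cell RNA-seq series, because earlier results of these data had shown them to vary between cell classes. Their levels are therefore given as a description, with no test between classes. The series held 3 libraries of *Smc3* wt/wt and 3 libraries of *Smc3* wt/- splenic cells. Both genotypes carried the *Cγ1*-Cre allele, and the wt/- mice carried in addition 1 deleted allele of *Smc3*, which encodes a cohesin subunit. Cells were sorted about a week after immunization with sheep red blood cells. *Cγ1*-Cre acts in B-cells that enter the germinal center (GC) reaction, so T cells and myeloid cells of these mice are not its targets. The sorted cells came from 6 wt/wt and 3 wt/- mice, and the labels do not say which mice stand behind which library.

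Ly6 proteins are small three-fingered proteins that are mostly tethered to the cell surface by a glycosylphosphatidylinositol (GPI) anchor, and many of their genes lie in 1 cluster. *Ly6a* encodes Sca-1, known from blood stem cells and activated lymphocytes. *Ly6c1* and *Ly6c2* encode the Ly6C antigens of monocytes, memory CD8 T cells and some plasma cells. *Ly6d* marks commitment to the B lineage, *Ly6e* is induced by interferon, and *Ly6k* is known mainly from the testis.

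All 6 genes lie on chromosome 15 within 350 kb (349.915 kb) of GRCm38, the assembly behind the mm10 build of the submitters' processing notes, and GENCODE M21 lists each as protein coding. *Ly6d* (ENSMUSG00000034634) spans 74762056 to 74763620 and *Ly6k* (ENSMUSG00000044678) 74796874 to 74799986, both on the minus strand. *Ly6e* (ENSMUSG00000022587) lies on the plus strand at 74955051 to 74959905. On the minus strand follow *Ly6a* (ENSMUSG00000075602) at 74994877 to 74998031, *Ly6c1* (ENSMUSG00000079018) at 75044018 to 75048830 and *Ly6c2* (ENSMUSG00000022584) at 75108158 to 75111970.

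*Ly6c1* and *Ly6c2* are near copies, which bears on how 3′ counts can be read. The last 300 bases of their main transcripts were 93.5% identical, with a longest shared run of 124 bases. *Ly6a* was 80.1% and 81.0% identical to *Ly6c1* and *Ly6c2* over the same stretch, with shared runs of 36 and 37 bases. The other pairs of members shared no run over 10 bases. Reads that match both genes of a pair are not counted by the software used, so the split between *Ly6c1* and *Ly6c2* is uncertain.

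The promoters of the 2 near copies diverge more than their transcript ends. They are shown because 1 gene of the pair was counted in several cell classes and the other mostly in T cell-like cells. The set of promoter sequences used here, from RefSeq on GRCm38.p6, held 2 of the 6 members. The 250 bases before the start site, read 5′ to 3′ on the minus strand, are given from chr15:75048838-75049087 for *Ly6c1* and chr15:75111972-75112221 for *Ly6c2*. Capitals mark bases that differ from, or have no partner in, the other promoter.
Ly6c1: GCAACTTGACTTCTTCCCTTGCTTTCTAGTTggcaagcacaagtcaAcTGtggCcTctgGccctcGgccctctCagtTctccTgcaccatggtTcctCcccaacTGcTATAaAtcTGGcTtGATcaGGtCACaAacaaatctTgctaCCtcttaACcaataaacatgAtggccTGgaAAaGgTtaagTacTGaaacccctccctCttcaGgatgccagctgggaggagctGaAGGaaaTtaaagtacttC
Ly6c2: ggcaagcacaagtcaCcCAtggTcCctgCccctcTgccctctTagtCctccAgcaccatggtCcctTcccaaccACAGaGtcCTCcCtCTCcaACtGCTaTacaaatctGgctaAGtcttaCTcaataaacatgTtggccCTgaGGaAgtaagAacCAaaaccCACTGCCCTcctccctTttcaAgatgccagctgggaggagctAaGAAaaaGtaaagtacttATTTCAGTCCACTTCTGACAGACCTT
Over 228 aligned columns the promoters were 71.9% identical, with 52 mismatches and 12 gap columns. In the 300 base windows that also hold the first bases after the start, the interferon-stimulated response element and the STAT site TTCNNNGAA had no match in either gene on either strand. They occurred in 3.44% and 8.30% of 32851 promoters of that length. The ETS site GAGGAA, with 1 match in *Ly6c1* and 2 in *Ly6c2*, occurred in 28.3% of them.

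The 6 libraries held 5223325 to 35354257 unique molecular identifiers (UMIs, each 1 counted transcript), and 20809 of 22939 barcodes were kept. Member UMIs numbered 4899 to 80485 per library. Replicate 2 of *Smc3* wt/- stood apart, with immunoglobulin genes at 51.9% of its UMIs against 2.37% to 3.90% elsewhere. Pairs of libraries shared 4 to 36 cell barcodes, at most 0.989% of the smaller library. The *Smc3* transcript itself had in GC B-like cells 166, 172 and 161 CPM (UMIs of a gene scaled to the total UMIs of the class in that library) in wt/wt, and 159, 121 and 180 CPM in wt/-, but the 3′ counts lie outside the deleted exon and check nothing. Classes were rebuilt from transcripts and end in "-like" for that reason, and differences from the study may come from the rebuilt names. They comprised 12208 cells of the GC B-like class, 1819 naive or memory B-like, 2071 plasma-lineage, 528 T cell-like, 610 monocyte or macrophage-like and 67 neutrophil-lineage cells. GC B-like cells joined centroblast-like (CB-like, 1 cluster of which was led by the neutrophil gene *Elane*), S-phase, centrocyte-like (CC-like) and recycling-like cells. A cluster of 3446 cells led by haemoglobin genes received no name. Of the neutrophil-lineage cells, 63 came from wt/- replicate 2, as did 518 of the monocyte or macrophage-like cells. Class levels are given for libraries with at least 20 cells of the class.

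**Figure D1:**
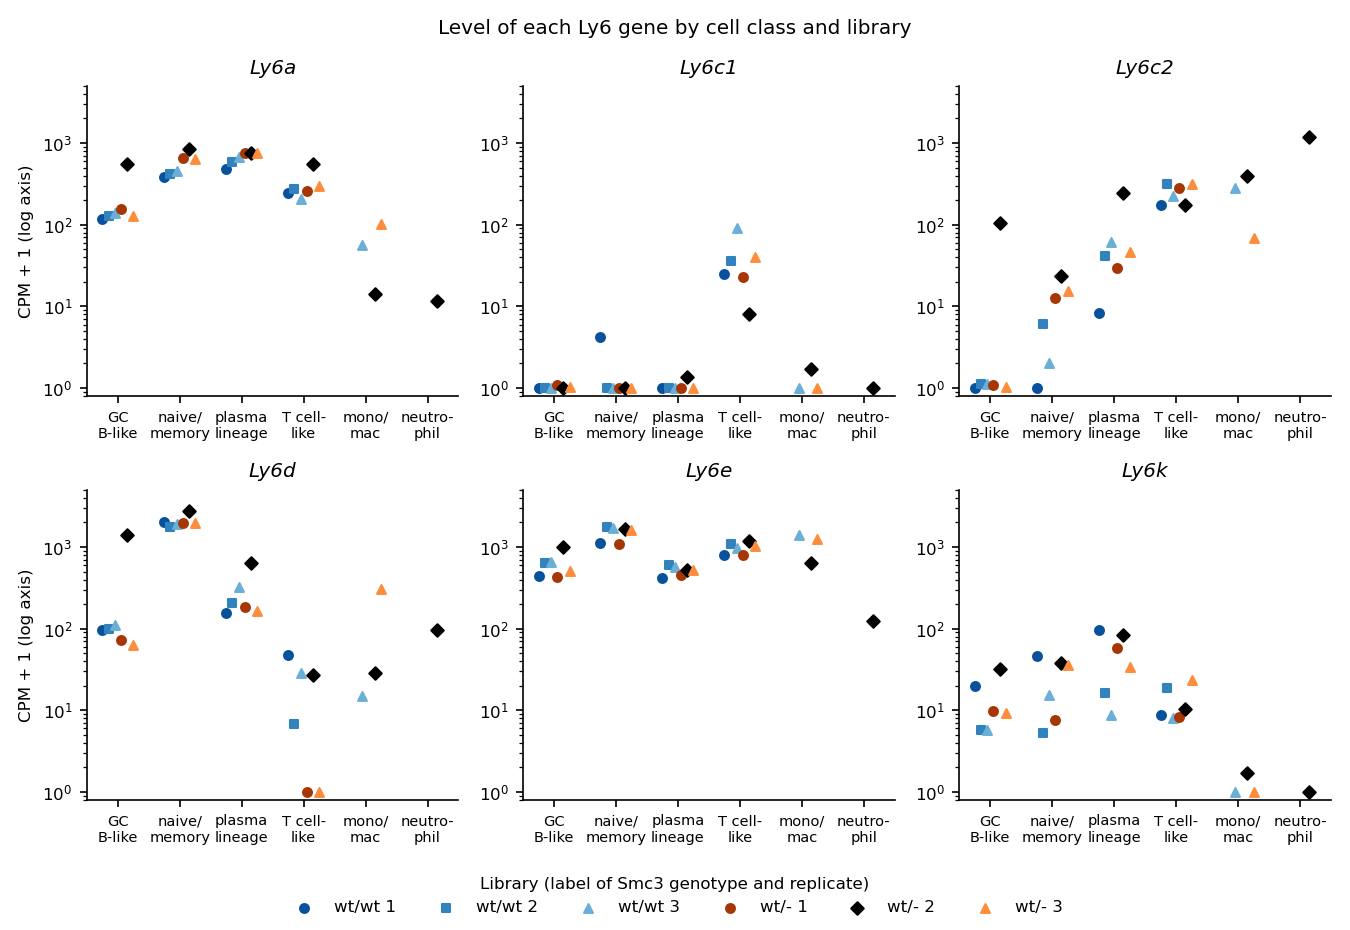
CPM of each gene (plus 1, log axis) in 6 cell classes, 1 point per library with at least 20 cells of the class, blue for *Smc3* wt/wt and orange or black for wt/-. *Ly6d* peaks in naive or memory B-like cells at 1782 to 2760 CPM, and the black point of wt/- replicate 2 lies above the other libraries in GC B-like cells for each gene but *Ly6c1*.

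*Ly6d* followed B cell state. In naive or memory B-like cells it reached 2008, 1782 and 1934 CPM in the wt/wt libraries and 1951, 2760 and 1972 CPM in wt/-. In GC B-like cells it stood at 95.6, 97.3 and 109 CPM in wt/wt and 72.5, 1387 and 62.6 CPM in wt/-. In every library the naive or memory B-like level was the higher, by 3.78 ± 1.40 on the log2(CPM + 10) scale (SD, n = 6), and wt/- replicate 2 showed the smallest gap. Within the GC, *Ly6d* was highest in CC-like cells of 5 libraries (324, 210, 243, 152 and 164 CPM) and of wt/- replicate 2 (2534 CPM). CB-like cells of the same libraries had 62.7, 79.0, 87.5, 47.3, 43.0 and 1203 CPM. The CC-like cells thus carried more *Ly6d* than the CB-like cells of their own library in 6 of 6 libraries. In wt/- replicate 2 the CC-like level lay within the range of naive or memory B-like cells. The GC B-like cells of that library also had little *Rgs13*, a gene of GC B-cells (95.6 CPM against 470 to 884 CPM). Plasma-lineage cells held 152 to 645 CPM, or 215 to 1923 CPM outside immunoglobulin genes. T cell-like cells held 0 to 47.2 CPM, from 22 UMIs in all.

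Because shares of cells depend on depth, each cell was thinned to 1000 UMIs outside immunoglobulin genes. After thinning, 81.0% of naive or memory B-like cells (median 2423 UMIs before thinning), 9.86% of GC B-like cells (6191.5 UMIs) and 1.07% of T cell-like cells (1646 UMIs) had a *Ly6d* UMI. T cells are not known to express *Ly6d*. Of their 22 UMIs 11 lay in wt/- replicate 2, which held 140 of the 528 T cell-like cells. The *Ly6d* level of these cells was 26.2 CPM there, 5.86 to 47.2 CPM in wt/wt and 0 in the other wt/- libraries. T cell-like cells of wt/- replicate 2 carried 16 plasma cell markers at 6048 CPM in sum against 386 to 1358 CPM elsewhere (0 of these genes without a UMI there, 2 to 6 in the others). Whether free RNA gave the *Ly6d* UMIs was not tested. Without thinning these shares were 93.9%, 32.6% and 1.89%. Of plasma-lineage cells 54.9% had one after thinning and 78.1% before it. Of these 2071 cells 1746 came from wt/- replicate 2. Before thinning 83.3% of them had a *Ly6d* UMI, against 35.3% to 64.2% of plasma-lineage cells in the other libraries. Intervals and floors cover counting error only.

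*Ly6e* was the broadest member. In naive or memory B-like cells it had 1134, 1735 and 1727 CPM in wt/wt and 1094, 1665 and 1596 CPM in wt/-. GC B-like cells had 440, 636 and 652 CPM in wt/wt and 431, 1009 and 514 CPM in wt/-, lower in each library. The difference was 1.30 ± 0.31 on the log2(CPM + 10) scale (SD, n = 6). T cell-like cells lay between both classes of each library, with 803 to 1194 CPM. Within the GC the lowest levels were those of recycling-like cells in each library, 317 to 824 CPM. In the 63 neutrophil-lineage cells of wt/- replicate 2 it had 125 CPM. Plasma-lineage levels of 418 to 600 CPM differed from GC B-like levels by -0.20 ± 0.38, less than the spread between libraries, and by 0.38 once immunoglobulin UMIs were left out.

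*Ly6a* was low in the GC and higher before and after it. GC B-like cells had 117, 128 and 136 CPM in wt/wt and 155, 555 and 126 CPM in wt/-. Naive or memory B-like cells had 378, 413 and 448 CPM in wt/wt and 660, 856 and 629 CPM in wt/-. Plasma-lineage cells had 487, 583 and 666 CPM in wt/wt and 754, 755 and 759 CPM in wt/-. Outside immunoglobulin genes these were 705, 791 and 900 CPM in wt/wt and 939, 2251 and 1006 CPM in wt/-, so the near-equal wt/- values did not hold once those UMIs were left out. Both classes exceeded the GC B-like cells of every library, by 1.62 ± 0.55 and 1.90 ± 0.74 (SD, n = 6, log2(CPM + 10)). The ranges of naive or memory B-like and plasma-lineage cells overlapped. Monocyte or macrophage-like cells held 13.1 to 101 CPM in 3 libraries, and 2.65% of them had a *Ly6a* UMI after thinning, against 55.7% of plasma-lineage and 37.7% of naive or memory B-like cells.

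Among naive or memory B-like cells, *Ly6a* was higher where the IgD transcript *Ighd* was not detected. Cells without an *Ighd* UMI had 519, 458 and 500 CPM in wt/wt and 744, 912 and 815 CPM in wt/-. Cells with one had 288, 364 and 407 CPM in wt/wt and 515, 692 and 451 CPM in wt/-. The order was the same in 6 of 6 libraries. *Ly6d* showed no such order, being higher without *Ighd* in 3 of 6 libraries.

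*Ly6c2* had 7823 UMIs and *Ly6c1* 48 UMIs in all kept cells. *Ly6c2* was highest in the neutrophil-lineage cells of wt/- replicate 2, at 1186 CPM. Monocyte or macrophage-like cells had 280 CPM in wt/wt replicate 3 and 389 and 67.2 CPM in wt/- replicates 2 and 3, and most of it lay in the *Lyz2*-led cluster, where 11.3% of cells (median 2701 UMIs) had a UMI after thinning against 1.92% (1508 UMIs, 1 of 52 cells) in the *C1qa*-led macrophage cluster. T cell-like cells had 173, 311 and 224 CPM in wt/wt and 283, 171 and 318 CPM in wt/-. Plasma-lineage cells had 7.38, 40.6 and 61.0 CPM in wt/wt and 28.6, 243 and 45.3 CPM in wt/-, above the GC B-like cells of each library. In GC B-like cells 5 libraries held 0 to 3 *Ly6c2* UMIs each, and wt/- replicate 2 held 245. After thinning, 6 of 355 GC B-like cells of wt/- replicate 2 had a *Ly6c2* UMI (1.69%, exact 95% interval 0.623% to 3.64%), and 1 cell in the other 5 libraries together, in wt/wt replicate 3 (0.0337%).

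The T cell-like cells with UMIs of only 1 co-receptor divided by it. The other T cell-like cells are placed in neither set. In all, the 528 T cell-like cells held 274 *Ly6c2* and 428 *Ly6a* UMIs. Of cells with a *Cd8a* or *Cd8b1* UMI and none of *Cd4*, 39 of 96 had a *Ly6c2* UMI after thinning (40.6%, exact 95% interval 30.7% to 51.1%). Of cells with *Cd4* alone it was 2 of 84 (2.38%, 0.290% to 8.34%). Most of these subsets held under 20 cells in a library, so counts are given. *Ly6c2* UMIs numbered 17, 34, 21, 24, 41 and 28 in the *Cd8* cells of wt/wt 1 to 3 and wt/- 1 to 3, and 0, 0, 6, 5, 0 and 1 in the *Cd4* cells, so the *Cd8* cells held more in every library. *Ly6a* leaned the other way, with a UMI in 25% of *Cd4* cells (16.2% to 35.6%) and 11.5% of *Cd8* cells (5.86% to 19.6%), intervals that overlap. *Ly6a* UMIs numbered 1, 28, 9, 5, 73 and 20 in the *Cd4* cells of the same libraries and 1, 1, 4, 3, 10 and 4 in the *Cd8* cells, more in the *Cd4* cells of 5 libraries and 1 on each side in wt/wt replicate 1. Median depth was close, 1851 UMIs in *Cd8* and 1862.5 UMIs in *Cd4* cells.

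**Figure D2:**
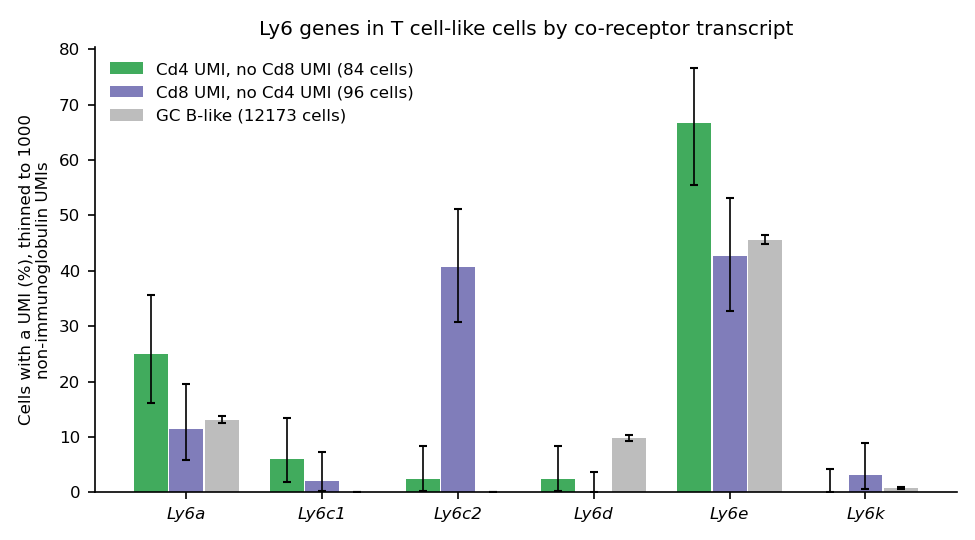
Share of cells with a UMI of each gene after thinning to 1000 UMIs outside immunoglobulin genes (bars, all libraries together, exact 95% binomial intervals that cover counting error only), in T cell-like cells with *Cd4* or *Cd8* transcripts and in GC B-like cells. *Ly6c2* stands at 40.6% in *Cd8* cells and 2.38% in *Cd4* cells.

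*Ly6c1* was close to absent outside T cell-like cells. Of its 48 UMIs, 35 fell in T cell-like cells, where levels were 23.6, 35.2 and 91.0 CPM in wt/wt and 21.8, 7.14 and 39.7 CPM in wt/-. These UMIs came from 21 cells, all of them with a *Cd3d*, *Cd3e* or *Cd3g* UMI and 2 of them with a *Ly6c2* UMI. Only 1 of the 21 carried a UMI of the natural killer genes *Ncr1* or *Klrb1c*, which 29 of the 528 T cell-like cells had. Another 9 UMIs lay in plasma-lineage cells of wt/- replicate 2.

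*Ly6k* was sparse and uneven. In plasma-lineage cells it had 95.9, 15.3 and 7.70 CPM in wt/wt and 57.2, 82.7 and 33.1 CPM in wt/-. In GC B-like cells it had 18.6, 4.69 and 4.82 CPM in wt/wt and 8.87, 31.3 and 8.20 CPM in wt/-, lower in each library. Few cells carried it. The 2065 *Ly6k* UMIs of the plasma-lineage cells of wt/- replicate 2 came from 200 of 1746 cells, with up to 86 UMIs in a cell, and the top 5% of cells held 86.8% of them. In the other 5 libraries 2 to 8 plasma-lineage cells had a *Ly6k* UMI. For *Ly6e* in the same cells of wt/- replicate 2, 97.0% of cells had a UMI and the top 5% held 14.9%. Monocyte or macrophage-like cells held 1 *Ly6k* UMI in all.

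Plasma-lineage cells were then divided by the heavy chain constant gene that gave at least 80% of their constant region UMIs, a division chosen after the values had been seen that placed 2030 of 2071 cells. Levels here are CPM outside immunoglobulin genes, and they are given for sets below 20 cells too. Cells with *Igha*, the IgA constant gene, numbered 13, 19 and 24 in wt/wt and 13, 1633 and 22 in wt/-. That was 22.0% to 43.3% of the assigned cells in 5 libraries and 94.7% in wt/- replicate 2. In *Igha* cells *Ly6d* had 596, 980 and 1859 CPM in wt/wt and 465, 1907 and 999 CPM in wt/-. In cells of the other constant genes it had 144, 174 and 228 CPM in wt/wt and 182, 2222 and 98.7 CPM in wt/-. The *Igha* cells were the higher in 5 of 6 libraries, and in wt/- replicate 2 both sets were high. Only wt/wt replicate 3 and wt/- replicates 2 and 3 had at least 20 cells in both sets, and the *Igha* cells were the higher in 2 of these 3.

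For *Ly6c2* the *Igha* cells were the higher in the same 5 libraries, on few UMIs. *Igha* cells had 71.6, 95.1 and 509 CPM in wt/wt and 122, 557 and 303 CPM in wt/-. The other cells had 0, 49.2 and 20.2 CPM in wt/wt and 30.9, 2795 and 25.7 CPM in wt/-. The *Igha* values rest on 3, 10 and 75 UMIs in wt/wt and on 5, 4311 and 33 UMIs in wt/-. A few cells carried most of the *Ly6c2*. Among all plasma-lineage cells, the top 5% held 77.8% and 84.2% of its UMIs in wt/wt replicates 2 and 3, and 91.7%, 58.4% and 82.7% in wt/- 1 to 3, with up to 333 UMIs in a cell of wt/- replicate 2. In wt/- replicate 2, 32 cells with *Ighg2b* held 956 *Ly6c2* UMIs, or 5556 CPM, and 27 of them had a UMI. *Ly6a* was higher in *Igha* cells of 2 of 6 libraries, *Ly6e* of 4 and *Ly6k* of 5, but the *Ly6k* of the *Igha* cells came from 1 cell in each wt/wt library (14, 5 and 9 UMIs). *Igha* cells were shallower in 6 of 6 libraries. Their medians were 2679 to 5394 UMIs outside immunoglobulin genes against 11349 to 19901 UMIs in 5 libraries, and 4788 against 5294 UMIs in wt/- replicate 2.

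**Figure D3:**
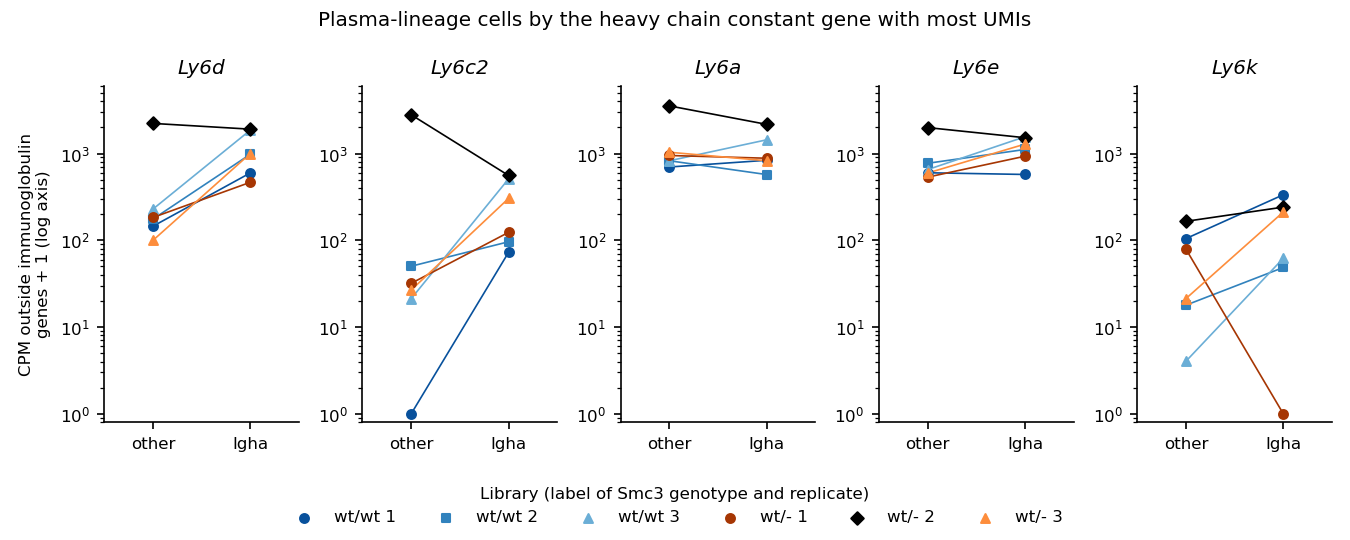
CPM outside immunoglobulin genes (plus 1, log axis) in plasma-lineage cells whose constant region UMIs came from *Igha* or from another gene, 1 line per library. *Ly6d* and *Ly6c2* are higher in *Igha* than in other cells in 5 libraries, and in wt/- replicate 2 *Ly6c2* goes from 2795 to 557 CPM.

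GC B-like cells of wt/- replicate 2 had higher levels than those of every other library for 5 of the 6 members, all but *Ly6c1*. *Rgs13*, a gene of GC B-cells that was set beside them after these values had been seen, had 95.6 CPM in that library and 470 to 884 CPM elsewhere. Genes of B cell precursors had 0 UMIs in the GC B-like cells of that library. The 16 plasma cell markers summed to 5017 CPM there and 3386 to 3883 CPM elsewhere, with 0 to 1 genes at 0. The 15 monocyte or macrophage markers summed to 811 CPM there and 360 to 395 CPM elsewhere, with 0 to 3 genes at 0. The part of any of these in the Ly6 levels was not tested.

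*Ly6c2* in these cells moved with neutrophil transcripts. The 19 GC B-like cells of wt/- replicate 2 with a *Ly6c2* UMI carried neutrophil precursor genes at 17423 CPM, and 9 of them had such a UMI. The 337 cells without *Ly6c2* carried them at 29.98 CPM. Leaving out the 66 cells with a neutrophil precursor UMI took *Ly6c2* from 104 to 11.1 CPM, while *Ly6d* went from 1387 to 1499 CPM and *Ly6a* from 555 to 588 CPM. In the other 5 libraries the neutrophil precursor list stood at 0 to 0.515 CPM.

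**Figure D4:**
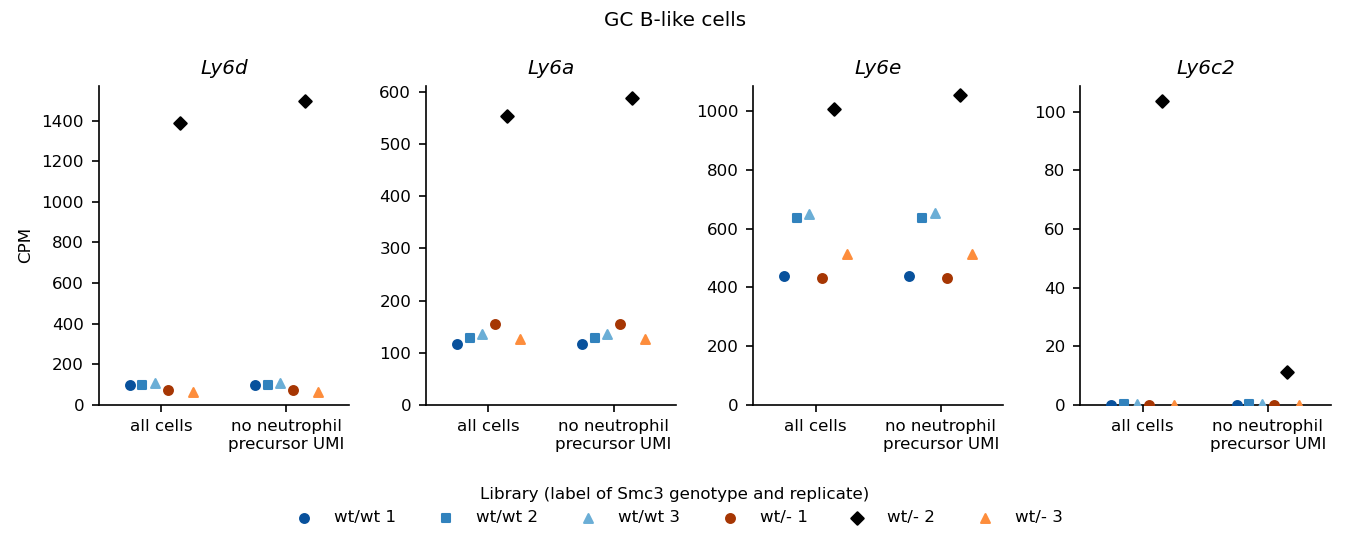
CPM of 4 members in GC B-like cells, 1 point per library, for all cells and for cells with no UMI of the neutrophil precursor genes. In wt/- replicate 2 (black) *Ly6d* stands at 1387 and 1499 CPM, above the other libraries in both sets, and *Ly6c2* at 104 and 11.1 CPM.

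Other genes of the Ly6 and uPAR family were mostly silent. Of 38 symbols listed, 33 were in the data, and 4 reached a class mean of 50 CPM. *Ly6g*, the neutrophil antigen, had 545 CPM and *Cd177*, another neutrophil surface protein, 805 CPM in the neutrophil-lineage cells. *Ly6i* had 82.3 ± 42.1 CPM (SD, n = 3) in monocyte or macrophage-like cells. *Plaur*, the urokinase receptor, had 79.5 ± 47.4 CPM (SD, n = 6) in naive or memory B-like cells and 1.35 ± 1.67 CPM in GC B-like cells.

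The genotypes were compared per class with edgeR's quasi-likelihood test over all genes, which asked whether 1 *Smc3* allele less changed the members. No member passed an adjusted p of 0.05 in any of the 4 classes, nor did any gene, so the share called was 0% of 10871, 7028, 5917 and 2350 genes (in that order GC B-like, the naive or memory class, plasma-lineage, T cell-like). At an unadjusted p under 0.05 there were 175, 129, 172 and 58 genes, and DESeq2 called 2, 0, 0 and 0. Of the members, 4, 5, 5 and 3 had enough counts to be tested. *Ly6c1* was tested in none.

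In naive or memory B-like cells *Ly6a* and *Ly6c2* did not overlap between genotypes. TMM-scaled *Ly6a* was 339, 438 and 477 CPM in wt/wt and 601, 988 and 655 CPM in wt/-. The log2 fold change was 0.83 ± 0.24 (SE, adjusted p = 0.9998, edgeR), and it was 0.58 without wt/- replicate 2. *Ly6c2* was 0, 5.46 and 1.11 CPM in wt/wt and 10.6, 26.4 and 15.0 CPM in wt/-, from 0, 6 and 1 UMIs against 7, 40 and 16 UMIs. Its log2 fold change was 2.60 ± 0.65 (SE, adjusted p = 0.9998, edgeR), a size that leans on the count near 0 in wt/wt. Leaving out 1 library at a time gave 2.11 (without wt/- replicate 2) to 4.30 (without wt/wt replicate 2), with no call. Without the filter on low counts, over 13714 genes, the adjusted p of *Ly6c2* was 0.00310. In wt/- replicate 1, 1 cell held 57.1% of the *Ly6c2* UMIs. In this class 3.57% of all genes were higher in every wt/- library without overlap, against which the 2 of 5 members stand, and 3.51% were lower in the same way. In GC B-like, plasma-lineage and T cell-like cells no member was free of overlap in either direction, where 4.23%, 4.66% and 3.83% of genes were higher and 4.51%, 4.56% and 3.45% lower. In naive or memory B-like cells *Ly6d* and *Ly6e* had log2 fold changes of 0.29 ± 0.27 and -0.04 ± 0.32 (SE), and that of *Ly6d* was 0.00039 without wt/- replicate 2. Markers of other cells were highest in wt/- replicate 2 in this class, as were *Ly6a* and *Ly6c2*. The 15 monocyte or macrophage markers summed to 854, 879 and 930 CPM in wt/wt and 903, 1185 and 913 CPM in wt/- (1 to 7 genes at 0). The 15 T cell markers summed to 52.1, 87.6 and 72.6 CPM in wt/wt and 68.3, 110 and 76.6 CPM in wt/- (2 to 12 genes at 0). The 16 plasma cell markers summed to 1340, 1428 and 1366 CPM in wt/wt and 1619, 3016 and 1459 CPM in wt/-, with 0 to 2 of these genes at 0 in a library. The 14 neutrophil markers summed to 86.4 CPM in wt/- replicate 2 (2 genes at 0), 1.67 CPM in wt/- replicate 1 (13 genes at 0) and 0 in the other libraries. The class was also made up unequally. Clustered at a resolution of 1, it fell into a cluster led by *Plac8* and *Capg* and another led by *Ighd*. The first held 59, 149 and 118 cells of wt/wt and 85, 492 and 143 cells of wt/-, and the second 48, 201 and 142 cells of wt/wt and 95, 107 and 183 cells of wt/-. The part of the markers and of this makeup in the levels of both genes was not tested.

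The genes of the interferon response, a response known to raise *Ly6a* and *Ly6e*, gave no call. Of 31 interferon genes listed, 22 were tested in naive or memory B-like cells, 18 with a positive and 4 with a negative fold change, with a median log2 fold change of 0.21 against 0.01 over all genes tested. Their summed level was 1219 to 1586 CPM in wt/wt and 2752, 1256 and 1776 CPM in wt/-, and its part in the *Ly6a* levels was not tested. Of 30 genes of GPI anchor synthesis and transfer 19 were tested, 12 with a positive and 7 with a negative fold change and a median of 0.05. None passed. In GC B-like cells 27 interferon genes and 29 GPI genes were tested, with medians of 0.48 and 0.02 and no call, and 7 other family genes had a median of 0.28. Of the 27 interferon genes 23 had a positive and 4 a negative fold change. Their list summed to 378, 487 and 442 CPM in wt/wt and to 700, 763 and 583 CPM in wt/-, without overlap. Gene by gene, 3 of the 27 were higher in every wt/- library without overlap and 1 was lower. Over all genes tested these shares were 4.23% and 4.51%. The part of the interferon list in the Ly6 levels of these cells was not tested. In plasma-lineage cells 12 interferon and 13 GPI genes had medians of 0.63 and 0.00 (-0.00301), and in T cell-like cells 10 and 5 genes had medians of 0.09 and -0.22, again with no call.

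In the other classes several fold changes turned on wt/- replicate 2. For *Ly6d* in GC B-like cells the log2 fold change was 2.46 ± 1.18 with that library and -0.61 ± 0.12 (SE) without it, and 0.69 with the replicate number as a block. For *Ly6a* it was 1.21 ± 0.58 with and 0.10 ± 0.13 without it. In plasma-lineage cells *Ly6c2* went from 2.996 ± 1.27 (SE, adjusted p = 0.896, edgeR) to -0.33 ± 0.45, and *Ly6d* from 1.92 ± 0.98 to -0.59 ± 0.27. *Ly6k* in plasma-lineage cells had 1.91, from 0.53 without wt/- replicate 2 to 3.47 without wt/wt replicate 1. The class joins 2 clusters that the libraries filled unequally. The one with more immunoglobulin held 9, 14 and 17 cells of wt/wt and 9, 1282 and 11 cells of wt/-, and the other 25, 53 and 61 cells of wt/wt and 54, 464 and 72 cells of wt/-. Replicate 2 of wt/- also held most of the *Igha* cells described above. In plasma-lineage cells of that library the 14 neutrophil markers summed to 69.3 CPM, against 0 to 2.57 CPM elsewhere. The 15 monocyte or macrophage markers summed to 635 CPM there and 374 to 440 CPM elsewhere, and the 15 T cell markers to 15.9 and 21.2 to 65.3 CPM. The part of any of these in the Ly6 values was not tested. In T cell-like cells *Ly6a* was 263, 338 and 261 scaled CPM in wt/wt and 279, 686 and 368 in wt/-, a log2 fold change of 0.66 ± 0.32 that was 0.15 ± 0.26 without the library. *Ly6c2* in T cell-like cells had 0.04 ± 0.31, and -0.20 to 0.32 with 1 library left out at a time.

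**Figure D5:**
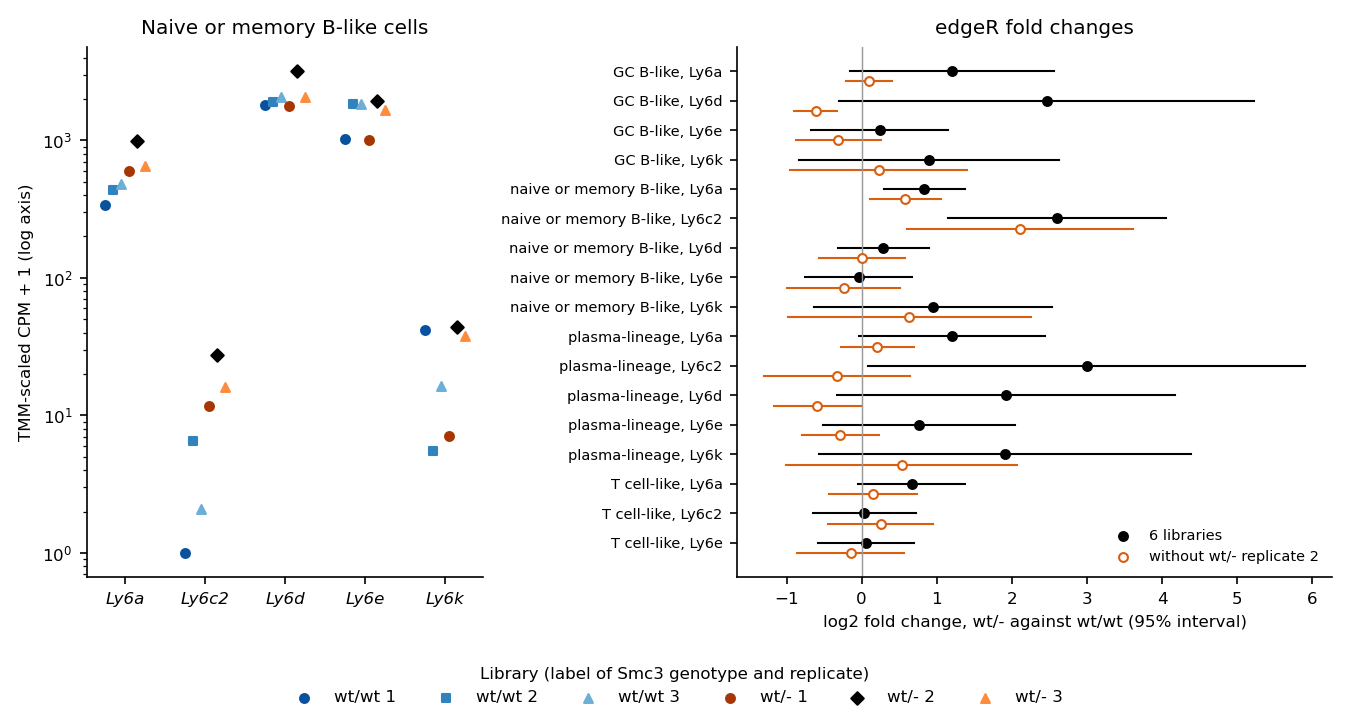
Left, TMM-scaled CPM (plus 1, log axis) of 5 members in naive or memory B-like cells, 1 point per library. Right, log2 fold changes of wt/- against wt/wt with 95% intervals from edgeR, with all 6 libraries (black) and without wt/- replicate 2 (open orange). *Ly6a* and *Ly6c2* stay above 0 in naive or memory B-like cells in both fits (0.83 and 0.58, 2.60 and 2.11), and *Ly6d* in GC B-like cells changes sign.

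Whether the genotype effect differed between GC B-like cells and each other class was tested directly for 16 differences of members, and none passed. The share of genes called was 0% in each of the 3 comparisons, with 252, 362 and 286 genes at an unadjusted p under 0.05 for naive or memory B-like, plasma-lineage and T cell-like cells. The smallest adjusted p among the members was that of *Ly6d* in T cell-like cells, whose effect was lower by 3.79 ± 0.70 on the log2 scale than in GC B-like cells (adjusted p = 0.461, edgeR). The T cell-like cells held 22 *Ly6d* UMIs, and none in wt/- replicates 1 and 3, too few for a test in that class alone. The low-count filter of the joint fit covered both classes, and *Ly6d* had most of its counts in GC B-like cells. The difference is therefore not read as an effect in T cell-like cells. Without wt/- replicate 2 the difference was -10.11 ± 3.47 (SE), with 0 *Ly6d* UMIs in the wt/- T cell-like cells that remain. Without wt/- replicate 3 this difference (-3.73) and that of *Ly6c2* (-7.50) in T cell-like cells passed the threshold, in a fit that called 12 of 9361 genes. The *Ly6c2* value rests on the GC B-like cells of wt/- replicate 2, whose 245 UMIs fell to 19 once cells with a neutrophil precursor UMI were left out. Without wt/- replicate 2 the difference of *Ly6d* between naive or memory B-like and GC B-like cells passed it, at 0.64 ± 0.13 (SE, adjusted p = 0.0466, edgeR), in a fit that called 7 of 9452 genes.

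Genes with the most similar levels were sought by Pearson correlation over 54 sums of 12 kinds of cells by library, which share libraries and depth. For *Ly6d* these were *Pcp4*, *Sema4b* and *Ccr6* (r = 0.78, 0.77 and 0.77). For *Ly6a* they were *Man1a*, *Pdia4* and *Gimap7* (0.78, 0.71 and 0.70), the first 2 of which encode enzymes of the secretory pathway. *Ly6c2* went with *Vsir*, *Glipr2* and *Emp3* (0.88, 0.84 and 0.82), and *Ly6e* with *St8sia4*, *Ogt* and *Dock2* (0.80, 0.79 and 0.78). The gene most like *Ly6k* was *Ly6a* (0.63). *Ly6c1*, with *Klrb1c* at 0.98, was too sparse to be read.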

How the data were processed

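Per the labels and the file headers, the authors made a table of UMI counts per gene and cell for each library with Cell Ranger 3.0.2 on mm10, and their processing notes name R 4.0.2 and Seurat 4.0.0. The deposited values are counts, with no normalization. Cells with at least 500 genes and at most 10% mitochondrial UMIs were kept (21568), and 759 called doublets (3.52%) were removed at 0.8% per 1000 cells. Cells were clustered (Seurat 5.3.0, R 4.3.3, 2000 variable genes, 30 components, resolution 0.5) and named from marker lists.

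Counts were summed per library and class of at least 20 cells. The log2 ratios between classes used a pseudocount of 10 CPM. Genotypes were compared with edgeR 4.0.16 (TMM, quasi-likelihood, two-sided, Benjamini-Hochberg over all genes tested), with DESeq2 1.42.0 as an alternative. The steps were tested on data simulated around the mean profile of each class, with no library that stands apart. The simulation therefore does not show how the test behaves with a library such as wt/- replicate 2. The labels do not state separate mice per library, so p-values measure the spread between libraries, part of which may be technical. By Y-linked and *Xist* transcripts, wt/wt had 2 male and 1 female library and wt/- 1 male and 2 female, so the libraries of each genotype came from at least 2 mice. Deviations from the genotype mean were compared by correlation between same-numbered libraries. The r was 0.31, 0.11 and 0.21 in GC B-like cells and 0.29, 0.21 and 0.14 in the naive or memory class. In plasma-lineage cells it was 0.15, 0.07 and 0.16, and in T cell-like cells 0.25, -0.09 and 0.15. No r was computed for libraries of different numbers. The values therefore cannot show whether the replicate numbers, which come from the labels, pair the libraries.

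The members and gene lists were chosen with earlier results of these data known. Named genes were the members, the 3 genes most correlated with each (among 4805 genes with at least 50 CPM in at least 3 sums), and list genes with a class mean of at least 50 CPM. Coordinates came from GENCODE M21. One gene and the results that need it are not reported here.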

Additional observations from a re-analysis of the deposited data

How the results depend on the processing

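No member's fold change between genotypes passed the threshold under any alternative but 1. Without a filter on low counts *Ly6c2* in naive or memory B-like cells had a log2 fold change of 2.61, with an adjusted p of 0.00310, and the numbers of genes called were 36 in that class, 3 in plasma-lineage and 7 in T cell-like cells. DESeq2 called 2 genes in GC B-like cells. With the replicate number as a block, *Ly6a* and *Ly6c2* in naive or memory B-like cells had 0.82 and 2.74 and *Ly6d* in GC B-like cells 0.69, and the block changed no call. With sex as a covariate, chosen after seeing the data, *Ly6c2* in T cell-like cells had -0.10.

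Leaving out 1 library at a time gave, in GC B-like cells, -0.61 to 3.0 for *Ly6d* and -0.31 to 0.50 for *Ly6e*, and in naive or memory B-like cells -0.27 to 0.19 for *Ly6e*, 0.00039 to 0.45 for *Ly6d* and 2.11 to 4.30 for *Ly6c2*. In plasma-lineage cells the ranges were -0.33 to 3.53 for *Ly6c2*, -0.59 to 2.41 for *Ly6d* and -0.28 to 1.13 for *Ly6e*, with 0 to 1 genes called. In T cell-like cells they were -0.20 to 0.32 for *Ly6c2* and -0.14 to 0.24 for *Ly6e*. The cause was not tested.

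For the difference of the effect from GC B-like cells, the ranges in naive or memory B-like cells were -0.37 to 0.51 (*Ly6a*), -6.01 to 2.98 (*Ly6c2*), -1.42 to 0.64 (*Ly6d*), -0.40 to 0.089 (*Ly6e*) and -0.97 to 0.45 (*Ly6k*). In plasma-lineage cells they were -0.15 to 0.13 (*Ly6a*), -4.79 to 0.45 (*Ly6c2*) and -0.34 to 0.054 (*Ly6d*). In T cell-like cells they were -0.61 to 0.077 (*Ly6a*), -7.50 to 0.99 (*Ly6c2*), -10.11 to -3.13 (*Ly6d*), -0.19 to 0.18 (*Ly6e*) and -1.88 to 0.47 (*Ly6k*). Without wt/- replicate 3, *Ly6c2* (-7.50) and *Ly6d* (-3.73) passed the threshold in T cell-like cells, in a fit that called 12 of 9361 genes. *Ly6d* had too few counts for a test in T cell-like cells alone. Without wt/- replicate 2, *Ly6d* in naive or memory B-like cells (0.64) passed the threshold. Without a library term *Ly6k* in naive or memory B-like cells had 0.065 and *Ly6a* in plasma-lineage cells -0.088.

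With a pseudocount of 1 CPM the log2 ratio of *Ly6c2* to GC B-like cells was 1.44 in naive or memory B-like, 4.26 in plasma-lineage, 6.71 in T cell-like and 5.31 in monocyte or macrophage-like cells, that of *Ly6c1* 4.84 in T cell-like cells and that of *Ly6k* -3.32 in monocyte or macrophage-like cells. Leaving out immunoglobulin genes gave *Ly6e* 0.38 in plasma-lineage cells, and keeping doublets gave it -0.66 in monocyte or macrophage-like cells. The last value rests on wt/- replicate 2 alone. With doublets kept the *C1qa*-led cluster received no name, and the class had 508 cells in that library and 6 to 14 in each other. Counts at or near 0 limit *Ly6c1*, *Ly6k* and, in B-like cells, *Ly6c2*.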
